A study of Rattus norvegicus with 8 samples.

Results

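The thyroid lineage transcription factors Pax8, Nkx2-1, Foxe1, Hhex, Tfcp2l1, and Glis3 were read in RNA-Seq data of rat thyroid. All 6 were chosen by gene symbol, and for each gene the transcript with the highest raw count summed over the samples was taken, which gave 6 of 30560 gene identifiers in the deposited table. The 8 samples came from male Wistar rats, which formed 4 groups of 2 named 1w0Gy, 1w4Gy, 4m0Gy, and 4m4Gy. Rats of 1w4Gy and 4m4Gy received 4 Gy of X-rays to the neck at 1 week or at 4 months of age, and 1w0Gy and 4m0Gy were sham-irradiated at the same ages. No group carried a transgene or a deletion, and all thyroids were taken about 8 weeks after the procedure, so that the 1w groups were young and the 4m groups mature adults when sampled. The sequenced RNAs were chosen within each group for their higher quality, and none was pooled. Age at irradiation and age at sampling cannot be told apart in this design, and p-values measure the spread over 2 rats per group.

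Thyroid follicular cells, which make thyroid hormone, depend on a small set of transcription factors. Pax8, a paired-domain factor, Nkx2-1, a homeodomain factor, and Foxe1, a forkhead factor, act with the homeodomain factor Hhex in the thyroid primordium, and are expressed together in few other places. In the grown gland Pax8 and Nkx2-1 bind regulatory regions of thyroglobulin (Tg) and the iodide symporter (Slc5a5), and Foxe1 binds the Tg promoter. Glis3 is a Krüppel-like zinc finger factor needed for hormone synthesis and for proliferation of follicular cells in response to thyrotropin. Tfcp2l1 belongs to the CP2/grainyhead family and is best known from pluripotent cells and from kidney and salivary ducts.

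No lineage factor passed the test after irradiation at either age, and neither did any other gene, with 0% of all genes called. The highest level was that of Pax8, and Nkx2-1 was the most even across the 8 rats. Hhex and Tfcp2l1 varied most. In sham-irradiated rats both were lower in the young than in the mature thyroid, with fold changes of 1.67 for Hhex and 1.59 for Tfcp2l1, and these differences passed the test with some settings and not with others. After irradiation at 1 week Tfcp2l1 was 1.48-fold higher in 1w4Gy than in 1w0Gy and Hhex 1.33-fold higher, whereas after irradiation at 4 months Hhex was at 0.721 of its sham level.

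Counts on genes were between 14835400 and 18138102 per sample. Values between samples are given as CPM, raw counts divided by the TMM-scaled size of each library, and levels between genes as TPM, which the authors also scaled by transcript length. The defining markers of follicular cells were high in all samples. Tg took 18.5% to 21.3% of the counts, and Slc5a5 was at 153.9 ± 38.8 TPM (SD, n = 8) and the thyrotropin receptor Tshr at 54.2 ± 6.92. In each group the counts of both rats differed by more than sampling noise, and chi-square divided by its degrees of freedom was 8.44 to 17.3. Lung, where Nkx2-1 is also expressed, was near absent, with the airway and lung markers Scgb1a1, Sftpb, and Sftpc summing to at most 0.371 CPM. C cells, the calcitonin cells of the gland, which also express Nkx2-1, were present. In bulk tissue, fewer cells of a type and less RNA per cell cannot be told apart.

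Of the 6 factors Pax8 had the highest level. It averaged 232.7 ± 31.0 TPM (SD, n = 8) with a range of 182.4 to 287.0. Below it came Foxe1 at 119.4 ± 9.74, Hhex at 106.6 ± 25.5, and Nkx2-1 at 99.8 ± 5.14 TPM. Tfcp2l1 at 16.7 ± 3.34 and Glis3 at 6.91 ± 1.10 TPM were the lowest. The ranges of Foxe1 and Hhex overlapped over the 8 samples, as did those of Hhex and Nkx2-1, so the order of these neighbours is not set. Pax8 lay above Foxe1, Nkx2-1 above Tfcp2l1, and Tfcp2l1 above Glis3 in all pairs of samples. Raw counts were never below 756 for any of the 6 genes, and the counting error was 0.922% to 3.64% of a value.

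The factors were compared with short lists of related genes, not with all measured members of their families. Pax2 and Pax5, which form a subfamily with Pax8, were at 0.148 ± 0.0978 and 0.0807 ± 0.0605 TPM (SD, n = 8). Nkx2-2, Nkx2-3, and Nkx2-6 averaged at most 0.0293 TPM, and Nkx2-4 and Nkx2-5 were listed at 0 in all 8 samples. The Foxe1 relative Foxe3 was at 0.0171 ± 0.0316 TPM, and the other forkhead genes listed with it, Foxc1 and Foxd1, were at 2.08 ± 0.311 and 0.0319 ± 0.0237 TPM. Within each of these 3 short lists the lineage factor was the highest. Foxa1 and Foxa2, forkhead genes of another list, were at 0.179 ± 0.0779 and 3.10 ± 1.21 TPM. Tfcp2l1 and Glis3 instead had relatives at a similar level. Ubp1, a widely expressed CP2 factor, was at 19.98 ± 1.00 TPM with a range of 18.5 to 21.1, which overlapped that of Tfcp2l1, 11.2 to 20.7. Grhl2, the epithelial grainyhead factor, was at 11.3 ± 1.03, Tfcp2 at 6.78 ± 0.579, Grhl1 at 2.29 ± 0.551, and Grhl3 at 0.146 ± 0.0810 TPM. Glis2 stood at 7.14 ± 0.899 TPM, and its range of 5.80 to 8.68 overlapped that of Glis3, 5.49 to 9.31, whereas Glis1 was at 1.43 ± 0.601 TPM.

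**Figure D1:**
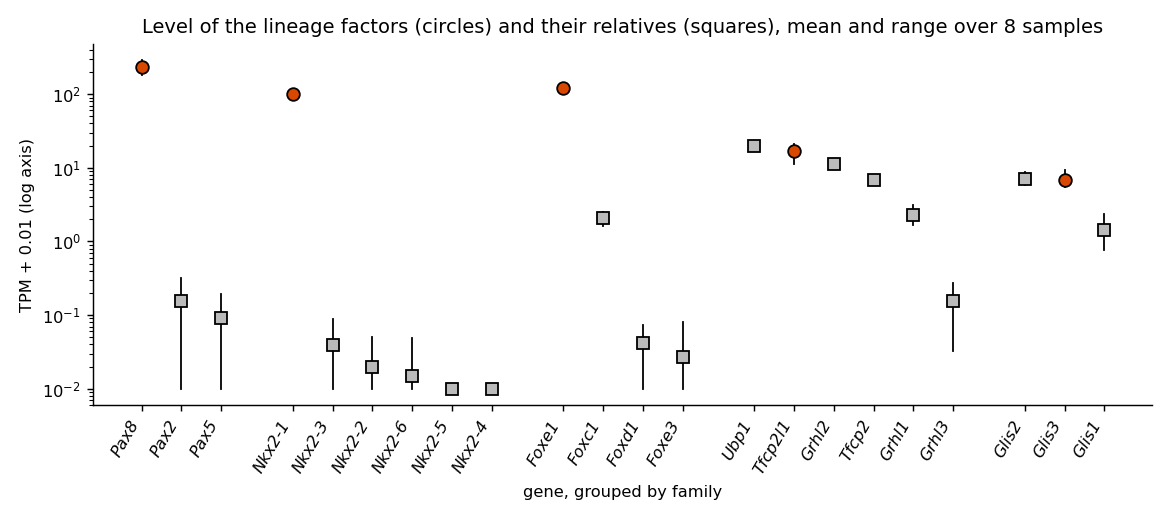
Mean (symbol) and range over the 8 samples (line) of the deposited TPM after adding 0.01, on a log axis, for the lineage factors (circles) and the related genes listed with them (squares). Pax8, Nkx2-1, and Foxe1 stand above the relatives shown, while Tfcp2l1 lies beside Ubp1 and Glis3 beside Glis2.

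The 1w0Gy rats had 602.9 and 492.6 CPM of Pax8, the 1w4Gy rats 654.9 and 535.3, the 4m0Gy rats 606.3 and 630.5, and the 4m4Gy rats 781.3 and 691.6. Both 4m4Gy rats lay above all the others, both 4m0Gy rats just above those of 1w0Gy, and 1w4Gy overlapped both sham groups. Its coefficient of variation over the 8 samples was 14.4%, against a median of 11.7% over the 15684 genes kept. The table holds 3 Pax8 transcripts that share reads. The second held 99.3% of the counts of the transcript used and the third 44.0% to 48.4%, depending on the sample.

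The 1w0Gy rats had 231.8 and 226.3 CPM of Nkx2-1, the 1w4Gy rats 259.2 and 233.7, the 4m0Gy rats 254.8 and 251.2, and the 4m4Gy rats 255.4 and 267.4. The 1w0Gy rats were the lowest, below all 6 others. At 6.01% the coefficient of variation was lower than that of all but 15.7% of genes. The 1w0Gy rats had 345.5 and 319.4 CPM of Foxe1, the 1w4Gy rats 388.0 and 319.3, the 4m0Gy rats 391.5 and 343.6, and the 4m4Gy rats 398.5 and 392.8. Its 4m4Gy values were the highest, but only slightly above single rats of 4m0Gy and 1w4Gy, and the coefficient of variation was 9.37%.

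The 1w0Gy rats had 117.4 and 165.8 CPM of Hhex, the 1w4Gy rats 213.3 and 164.4, the 4m0Gy rats 248.0 and 224.1, and the 4m4Gy rats 146.9 and 194.2. Both 4m0Gy rats lay above all 6 others. The 1w0Gy and 1w4Gy rats overlapped by a single near-equal pair, and the first 1w0Gy rat was the lowest of all. Over the 8 samples the highest value was 2.11 times the lowest and the coefficient of variation 23.6%, the largest of the 6 factors.

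The 1w0Gy rats had 105.8 and 123.6 CPM of Tfcp2l1, the 1w4Gy rats 160.6 and 179.0, the 4m0Gy rats 197.4 and 168.5, and the 4m4Gy rats 149.8 and 192.7. Both 1w0Gy rats lay below all 6 others, and the other 3 groups overlapped one another. The highest value was 1.87 times the lowest and the coefficient of variation 20.2%. The 1w0Gy rats had 50.6 and 43.8 CPM of Glis3, the 1w4Gy rats 50.7 and 53.2, the 4m0Gy rats 53.2 and 71.7, and the 4m4Gy rats 58.3 and 55.6. All 4m rats lay above the 1w rats, with near-equal values at the boundary, and the second 4m0Gy rat was the highest. Its coefficient of variation was 14.8%. A second, shorter Glis3 transcript held 9.44% to 16.4% of the counts of the one used.

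**Figure D2:**
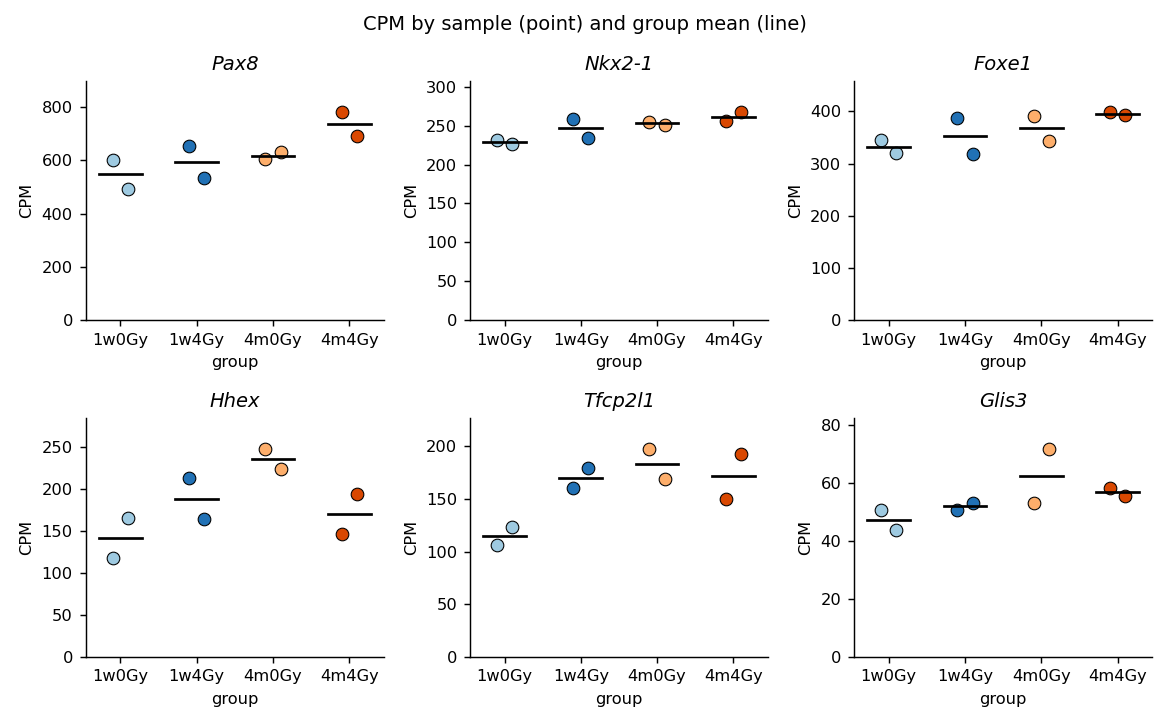
CPM (linear axis from 0) of each factor in the 8 samples (points, 2 rats per group) with the group mean (line). The 1w0Gy rats are the lowest in Tfcp2l1, the 4m0Gy rats the highest in Hhex, and Nkx2-1 is nearly flat.

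Because Hhex and Tfcp2l1 varied most, the 250 bases before their annotated starts are shown, with Nkx2-1 as the steadiest factor. Promoters were taken from RefSeq on the GRCr8 build, where 5 of the 6 genes had an entry. The build of the counts is not given in the sources used here, so the sequences are background and were joined to the counts by gene symbol only. Capitals mark matches on either strand to 5 motifs: the GC box GGGCGG, the CCAAT box CCAAT, the TATA box TATAAA, the NK-2 core CAAGTG, and the forkhead core TGTTTAC. The Hhex promoter is at chr1:244602695-244602944 on the plus strand, that of Tfcp2l1 at chr13:32286393-32286642 on the plus strand, and that of Nkx2-1 at chr6:79734868-79735117 on the minus strand. Each sequence reads 5′ to 3′ toward the gene.
Hhex: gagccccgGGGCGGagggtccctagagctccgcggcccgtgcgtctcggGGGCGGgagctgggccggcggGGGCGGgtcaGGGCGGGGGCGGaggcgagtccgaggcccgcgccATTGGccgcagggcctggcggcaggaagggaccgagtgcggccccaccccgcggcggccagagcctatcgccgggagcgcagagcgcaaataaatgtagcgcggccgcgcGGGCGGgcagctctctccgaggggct
Tfcp2l1: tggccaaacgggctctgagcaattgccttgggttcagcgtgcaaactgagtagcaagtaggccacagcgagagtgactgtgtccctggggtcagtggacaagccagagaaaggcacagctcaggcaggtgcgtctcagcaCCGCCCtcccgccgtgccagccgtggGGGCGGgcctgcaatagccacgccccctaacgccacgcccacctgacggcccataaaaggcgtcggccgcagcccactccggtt
Nkx2-1: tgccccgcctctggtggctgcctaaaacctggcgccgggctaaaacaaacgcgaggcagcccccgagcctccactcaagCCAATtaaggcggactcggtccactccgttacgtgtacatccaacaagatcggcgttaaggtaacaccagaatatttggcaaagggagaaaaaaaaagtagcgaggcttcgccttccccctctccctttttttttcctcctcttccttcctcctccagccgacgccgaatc
The Hhex stretch held 6 GC boxes and 1 CCAAT box with a GC content of 78.4%. In Tfcp2l1 there were 2 GC boxes and no CCAAT box, with a GC content of 64.8%, and in Nkx2-1 1 CCAAT box and no GC box, with 55.2%. The median GC content of all 33469 promoters was 51.2%, and 30.5% of them held a GC box and 34.0% a CCAAT box. Pax8 held 1 GC box and 1 CCAAT box at a GC content of 60.8%. None of the Hhex, Tfcp2l1, Nkx2-1, Pax8, and Glis3 windows held the TATA, NK-2, or forkhead letters, which were found in 12.9%, 11.7%, and 3.21% of all promoters. The motif pairs did not overlap one another in the sequences shown.

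The first comparison asked whether the factors differed 8 weeks after irradiation at 1 week. All 6 were higher on average in 1w4Gy than in 1w0Gy, with a median log2 fold change of 0.13 against 0.00 over the 15359 genes tested, 50.0% of which were higher. All 6 passed the filter on low counts. With edgeR's quasi-likelihood test, 0 of 6 were called with the threshold of 0.05 on the adjusted p and fold limits of 1.5 and 0.5, and 0% of all genes were. One factor, Tfcp2l1, had an unadjusted p under 0.05, as did 5.74% of all genes. In 3 factors, Nkx2-1, Tfcp2l1, and Glis3, both 1w4Gy rats lay above both 1w0Gy rats, and the groups did not overlap in 35.5% of all genes. DESeq2 called 0 of the 6 and 12 genes in all.

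Tfcp2l1 averaged 114.7 ± 12.6 CPM in 1w0Gy and 169.8 ± 13.0 in 1w4Gy (SD, n = 2). The log2 fold change was 0.57 with a standard error of 0.11 and a 95% confidence interval of 0.31 to 0.82. With edgeR's quasi-likelihood test and adjustment by Benjamini-Hochberg its adjusted p was 0.674, and the unadjusted p of that test ranked 29 among 15359 genes. With DESeq2 its adjusted p was 0.0188, but the fold change stayed under the limit of 1.5. Over 11 alternatives the adjusted p ran from 0.0188 to 0.862, and the log2 fold change without 1 rat from 0.46 to 0.68. Tfcp2l1 is among the genes that the study picked from these libraries, so its rank is not independent evidence. By quantitative RT-PCR in more rats, the study did not mark its difference as significant and left it out of its final genes.

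Hhex was at 141.6 ± 34.3 CPM in 1w0Gy and 188.9 ± 34.6 in 1w4Gy (SD, n = 2). Its log2 difference was 0.41 with a 95% confidence interval of -0.02 to 0.85, and the adjusted p of edgeR's quasi-likelihood test was 0.864. Without the first 1w0Gy rat the difference was 0.19, and without the second it was 0.69. The other 4 factors differed by log2 values of 0.09 to 0.14. With each rat left out in turn, Nkx2-1 ranged from 0.031 to 0.18 and Glis3 from 0.040 to 0.25. Without the first 1w4Gy rat the differences of Pax8 and Foxe1 were -0.031 and -0.056.

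Endothelial and adipocyte markers also differed between these groups. The 5 endothelial markers summed to 578.5 to 590.3 CPM in 1w0Gy and 691.8 to 705.2 in 1w4Gy, and 5 of 5 were higher in 1w4Gy. The 5 adipocyte markers summed to 193.3 to 277.4 and 136.5 to 140.5 CPM. Neither list had a called gene. The 4 epithelial markers Epcam, Cdh1, Krt8, and Krt18 stood at 1101 to 1139 CPM in 1w0Gy and 1094 to 1126 in 1w4Gy. Hhex is also known from endothelium, and the part of these cells in its values was not tested.

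The second comparison asked the same of irradiation at 4 months. Here 3 factors were higher and 3 lower in 4m4Gy than in 4m0Gy, with a median log2 fold change of -0.03 against 0.01 over 15253 genes. With edgeR's quasi-likelihood test 0 of 6 were called, as were 0% of all genes. Hhex and Pax8 had an unadjusted p under 0.05, against 8.04% of all genes, and DESeq2 called 0 of the 6 and 5 genes in all. Groups did not overlap in 4 factors, with Hhex below and Pax8, Nkx2-1, and Foxe1 above, against 39.6% of all genes.

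Hhex was at 236.0 ± 17.0 CPM in 4m0Gy and 170.6 ± 33.4 in 4m4Gy (SD, n = 2). Its log2 fold change was -0.47 with a standard error of 0.13 and a 95% confidence interval of -0.78 to -0.16, and the adjusted p of edgeR's quasi-likelihood test was 0.539. Over 11 alternatives the adjusted p ran from 0.176 to 0.698. Leaving out the first 4m4Gy rat gave -0.28 and leaving out the second gave -0.70. The second 4m4Gy rat stood apart in parathyroid markers, with a sum of 419.1 CPM against 5381 in the first, and the other 6 rats lay between 1955 and 5450. C cell markers summed to 6198 to 7028 CPM in 4m0Gy and 7201 to 8350 in 4m4Gy, and 4 of 5 were higher in 4m4Gy. Calca differed by a log2 value of 0.43 and Calcb by 0.79, whereas Chga was lower, at -0.47. Adipocyte markers summed to 78.6 to 170.7 and 67.7 to 84.6 CPM, and 5 of 5 were lower in 4m4Gy, from -0.17 for Cidec to -3.67 for Ucp1. None of these markers was called, and their part in the Hhex values was not tested.

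Pax8 was at 618.4 ± 17.1 CPM in 4m0Gy and 736.5 ± 63.4 in 4m4Gy (SD, n = 2). The log2 fold change was 0.25 with a standard error of 0.087 and a 95% confidence interval of 0.04 to 0.45, and edgeR's quasi-likelihood test gave an adjusted p of 0.580. Tfcp2l1, at -0.10, and Glis3, at -0.14, changed sign when 1 rat was left out. Nkx2-1 and Foxe1 differed by 0.04 and 0.10. The difference of Pax8 was 0.16 without the first 4m4Gy rat, and that of Foxe1 was 0.0059 without the second 4m0Gy rat and 0.20 without the first. Nkx2-1 stood at 0.077 without the first 4m4Gy rat, 0.0016 without the second, and 0.028 without the second 4m0Gy rat.

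Because the differences of Hhex and Tfcp2l1 at the 2 ages were unlike in size or sign, the interaction of age and irradiation was tested over all 8 samples. It is the log2 fold change at 1 week minus that at 4 months. The interaction was 0.88 for Hhex with a standard error of 0.27 and a 95% confidence interval of 0.27 to 1.49. For Tfcp2l1 it was 0.66 with a standard error of 0.19 and an interval of 0.22 to 1.10. Both had an adjusted p of 0.446 in edgeR's quasi-likelihood test, and 0 of 6 factors were called, as were 0% of all genes. These 2 factors had an unadjusted p under 0.05, against 9.12% of all genes. DESeq2 called 0 of the 6 and 26 genes in all. Over 9 alternatives the adjusted p ran from 0.0616 to 0.487 for Hhex and from 0.125 to 0.445 for Tfcp2l1. With each rat left out in turn the interaction stayed between 0.65 and 1.16 for Hhex and between 0.49 and 0.86 for Tfcp2l1. The other 4 factors had interactions of -0.13 to 0.27.

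**Figure D3:**
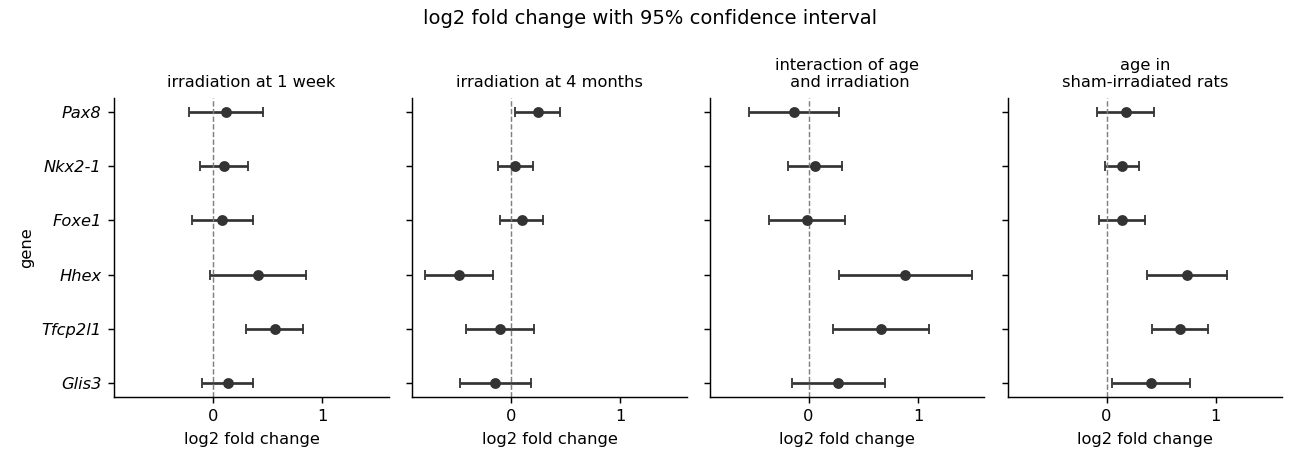
The log2 fold change (point) and its 95% confidence interval (bar) of each factor from edgeR's quasi-likelihood fit, for irradiation at each age, their difference (interaction), and age in sham-irradiated rats. The intervals of Hhex and Tfcp2l1 exclude 0 for the interaction and for age, although no adjusted p in these fits was under 0.05.

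Over both ages together, with age in the model, 0 of 6 factors were called for irradiation against 0.00638% of all genes, which is 1 gene. No factor reached an unadjusted p of 0.05 by edgeR, against 4.04% of all genes, and DESeq2 called 0. In 0 of 6 were the 4 irradiated rats apart from the 4 sham rats, against 1.54% of all genes. The log2 differences ran from -0.03 for Hhex to 0.23 for Tfcp2l1. That of Pax8 was 0.19 with a 95% confidence interval of -0.02 to 0.39. Glis3 was at 0.0015, and its sign depended on the normalization.

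Age was compared first in the sham-irradiated rats, which share no irradiated sample but are the controls of the comparisons above. All 6 factors were higher on average in 4m0Gy than in 1w0Gy, with a median log2 fold change of 0.29 against 0.00 over 15364 genes, 50.0% of which were higher. With edgeR's quasi-likelihood test 0 of 6 were called at an adjusted p under 0.05, against 0.722% of all genes. Hhex, Tfcp2l1, and Glis3 had an unadjusted p under 0.05, against 17.7% of all genes. Both 4m0Gy rats lay above both 1w0Gy rats in 5 factors, all but Foxe1, and groups did not overlap in 50.2% of all genes.

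Tfcp2l1 was at 114.7 ± 12.6 CPM in 1w0Gy and 182.9 ± 20.5 in 4m0Gy (SD, n = 2), a log2 fold change of 0.67 with a standard error of 0.11 and a 95% confidence interval of 0.42 to 0.93. Its adjusted p was 0.0569 in edgeR's quasi-likelihood test. It passed with DESeq2 at 5.31e-05, without the filter on low counts at 0.00808, and with a robust dispersion fit at 0.0442, within a range of 5.31e-05 to 0.114 over 9 alternatives. Hhex was at 141.6 ± 34.3 and 236.0 ± 17.0 CPM, a log2 fold change of 0.74 with a standard error of 0.15 and a 95% confidence interval of 0.37 to 1.11. With edgeR's quasi-likelihood test the adjusted p of Hhex was 0.0944. DESeq2 gave 0.00028 and the fit without a filter 0.0202, within a range of 0.00028 to 0.142.

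Glis3 was at 47.2 ± 4.80 CPM in 1w0Gy and 62.5 ± 13.1 in 4m0Gy (SD, n = 2), a log2 fold change of 0.41 with a standard error of 0.15. The adjusted p of edgeR's quasi-likelihood test was 0.233. Without the second 4m0Gy rat, the highest of all, the value was 0.17. Without the first 4m0Gy rat it was 0.60. The difference of Hhex ran from 0.51 to 1.00 with each rat left out in turn, and that of Tfcp2l1 from 0.55 to 0.79. Adjusted p values of these fits are not given, since 1 group then held only 1 rat. Pax8, Nkx2-1, and Foxe1 differed by 0.17, 0.14, and 0.14. The difference of Pax8 was 0.33 without the first 1w0Gy rat and 0.034 without the second. That of Foxe1 was 0.047 without the first 4m0Gy rat, 0.23 without the second, and 0.086 without the second 1w0Gy rat, and that of Nkx2-1 stayed between 0.12 and 0.16.

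Over both treatments, with treatment in the model, all 6 factors were again higher on average in the 4m rats, by log2 values of 0.11 to 0.34 with a median of 0.26 against 0.00 over 15684 genes. None passed edgeR's quasi-likelihood test, which called 4.25% of all genes, and DESeq2 called 0 of the 6. Pax8, Tfcp2l1, and Glis3 had an unadjusted p under 0.05, against 20.6% of all genes. Only in Glis3 did the 4 older rats lie above the 4 younger ones, against 12.8% of all genes without overlap. With each rat left out in turn, the difference ranged from 0.11 to 0.47 for Hhex, 0.23 to 0.48 for Tfcp2l1, and 0.15 to 0.33 for Glis3. Hhex was at 188.9 ± 34.6 CPM in 1w4Gy and 170.6 ± 33.4 in 4m4Gy, and Tfcp2l1 at 169.8 ± 13.0 and 171.3 ± 30.4 (SD, n = 2), so in the irradiated rats both differed by less than their spread. This and the interaction rest on the same 8 samples.

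Markers of several cell types also differed with age. The 5 fibroblast markers summed to 1831 to 2516 CPM in the 1w rats and 739.9 to 998.7 in the 4m rats. In the older sham rats the collagen genes Col1a1 and Col3a1 fell by 2.62 and 2.18 on the log2 scale. Both had an adjusted p of 0.0247 in edgeR's quasi-likelihood test. Pdgfra, Dcn, and Lum fell less there, by 0.47, 0.49, and 0.75, and were not called. The 5 C cell markers summed to 3283 to 5706 CPM in the 1w rats and 6198 to 8350 in the 4m rats, a sum carried mostly by the calcitonin gene Calca. Among these, Calca and Calcb were higher and Chga and Scg2 lower with age, and over both treatments Calca, at a log2 value of 1.19, passed edgeR's quasi-likelihood test at an adjusted p of 0.0132. All 5 adipocyte markers were lower with age, with a median log2 fold change of -0.99 in the sham rats, and over both treatments Adipoq fell by 0.97 and Plin1 fell by 0.89, at 0.0149 and 0.0268 in the same test. The 4 leukocyte markers tested were also lower, and Lyz2 fell by 0.50 at an adjusted p of 0.0393 by edgeR. Among the 5 endothelial markers Cdh5 fell by 0.44 over both treatments, at an adjusted p of 0.00504 by edgeR, and the others differed by -0.12 to 0.18. The epithelial markers stayed between 1066 and 1182 CPM in all 8 samples. The part of these cell types in the Hhex and Tfcp2l1 differences was not tested.

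**Figure D4:**
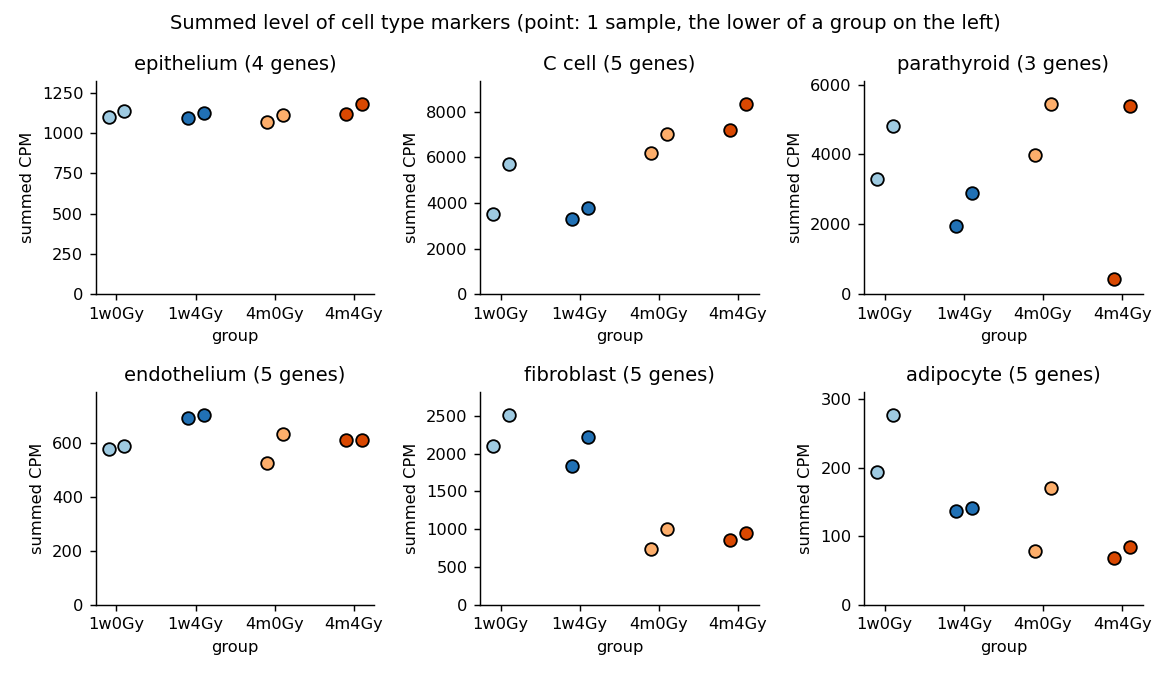
Summed CPM (linear axes from 0) of the listed markers of 6 cell types in each sample, with both rats of a group side by side. Epithelial markers are level, fibroblast markers are lower and the C cell sum, mostly Calca, is higher in the 4m groups, endothelial markers are highest in 1w4Gy, and 1 rat of 4m4Gy is low in parathyroid markers.

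The factors did not vary as 1 block. Across the 8 samples, Pearson's r of log2 CPM was 0.88 between Nkx2-1 and Foxe1, 0.85 between Pax8 and Foxe1, and 0.80 between Pax8 and Nkx2-1. Hhex and Tfcp2l1 had an r of 0.78. Nkx2-1 had an r of 0.68 with Tfcp2l1 and 0.58 with Hhex, and Pax8 had 0.53 with Glis3. Pax8 and Hhex had the lowest r of the 15 pairs, 0.046, and Pax8 and Tfcp2l1 had 0.25. These values describe 8 samples in 4 groups that share library depth and scaling, and no p is given for them.

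**Figure D5:**
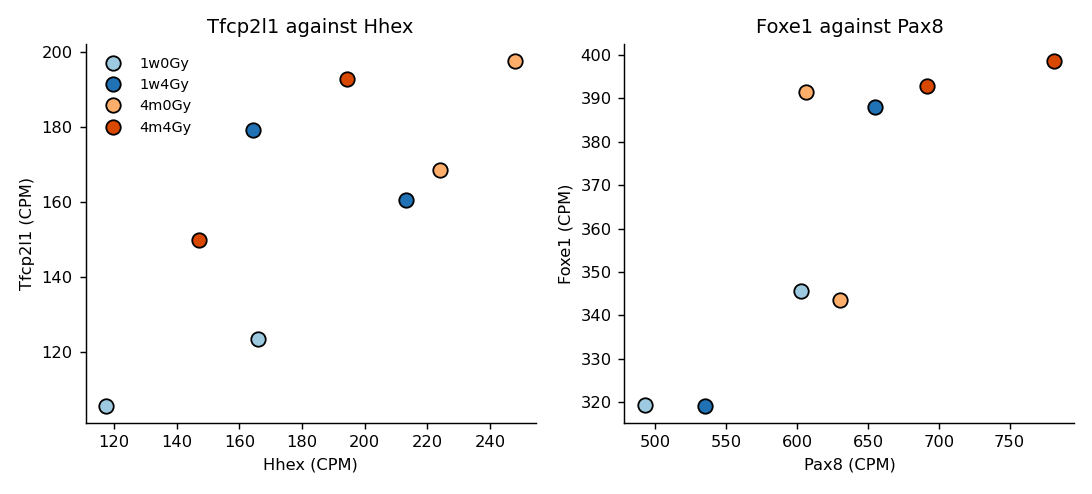
CPM of Tfcp2l1 against Hhex and of Foxe1 against Pax8, with 1 point per rat coloured by group. Both 1w0Gy rats have the lowest Tfcp2l1 and both 4m0Gy rats the highest Hhex, and both 4m4Gy rats have the highest Pax8 and Foxe1.

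Among 14002 named genes, those most like each factor were found by Pearson's r over the same 8 samples. Gpr137, Xrra1, and Gltpd2 were most like Pax8 (r of 0.96 to 0.97), Evc, Slc8b1, and Oxct1 like Nkx2-1 (0.96 to 0.98), and Rnf149, Capn5, and Fkbp1a like Foxe1 (each 0.97). For Hhex they were Kansl1, Hhipl1, and Ppm1h (each 0.94), for Tfcp2l1 Ctnna1, Slc51a, and Mroh1 (0.96 to 0.97), and for Glis3 Mink1, Sun5, and Aatk (0.95 to 0.99). No lineage factor was among the 3 genes most like another.

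The genes that act with or under these factors were read from 3 further lists. Of 18 thyroid function genes, the products through which Pax8, Nkx2-1, and Foxe1 are known to act, 15 were tested, and 0 were called after irradiation at either age. The largest differences, none called, were those of the cadherin Cdh16 (log2 0.36) and the potassium channel Kcnq1 (-0.29) at 1 week, and of the anion exchanger Slc26a7 (-0.24) and Cdh16 (0.22) at 4 months. With age over both treatments 1 of 15 passed: Tshr fell by 0.28 on the log2 scale, with an adjusted p of 0.0417 in edgeR's quasi-likelihood test. This test called 4.25% of all genes, so that 1 of 15 is near the background. In the sham rats 0 were called, and Slc5a5 (0.50) and Slc26a7 (0.40) differed most. The median of the list was 0.11 with age in the sham rats, beside 0.29 for the 6 factors and 0.00 for all genes.

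Of 20 partners and developmental regulators of the thyroid primordium, 17 were tested at 1 week and 18 at 4 months, 1 of them (Ep300) under 2 gene identifiers, and 0 were called. The largest difference at 1 week was that of the forkhead gene Foxa2 (-0.66). At 4 months those of Foxa1 (1.03) and the TEA domain factor Tead1 (-0.998) were the largest, and none of these genes was called. The Foxa1 value rests on few reads, since its raw counts were 5 to 15 over the 8 samples. With age over both treatments, where 4.25% of all genes were called, the Notch target Hes1 rose by a log2 value of 0.27 and Parp1 fell by 0.20, at adjusted p values of 0.0293 and 0.0459 in edgeR's quasi-likelihood test. Of 13 other epithelial transcription factors 9 were tested, and 0 were called after irradiation. Ehf, an ETS factor of epithelia, was higher with age in the sham rats by a log2 value of 1.19 (adjusted p 0.0436 in edgeR's quasi-likelihood test) and over both treatments by 0.87 (adjusted p 0.0309). Like Tfcp2l1 it was higher in 1w4Gy than in 1w0Gy, by 0.69 at an unadjusted p of 0.0234 in edgeR's fit, and its adjusted p was 0.864.

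The relatives of Tfcp2l1 and Glis3 at a similar level were compared in the same fits. Ubp1 differed by log2 values of -0.08 at 1 week, -0.07 at 4 months, and -0.0043 with age in the sham rats, and Grhl2 by 0.04, -0.06, and 0.14. Glis2 differed by -0.15 and -0.06 after irradiation and by -0.28 with age in the sham rats. At 1 week and with age this was opposite in sign to Glis3, and Glis2 was not called. Of the relatives at lower levels, Glis1 had the sign of Glis3 at 1 week (0.74) and with age (1.05), but not at 4 months (0.03). Grhl1 had the signs of Tfcp2l1 at 1 week (0.32) and 4 months (-0.27), but not with age (-0.14). Neither was called. No test compared Tfcp2l1 with Ubp1 or Glis3 with Glis2.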

How the data were processed

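RNA was measured in 8 thyroids, 2 per group, grouped by the sample labels. The authors mapped reads with HISAT2 2.2.1, counted them with featureCounts 2.0.0, and deposited a table of 54991 transcripts with raw counts, RPKM, and TPM. The genome build is not given in the sources used here. The counts were deposited without normalization and were used for every test, and the TPM, computed by the authors per transcript length, only for levels between genes. The 8 RPKM columns were not used. The transcript with the highest summed count was taken per gene, since transcripts of a gene share reads.

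Tests used edgeR 4.0.16 in R 4.3.3 (quasi-likelihood, TMM, filterByExpr, Benjamini-Hochberg over all genes tested). Irradiation at each age was fitted on its own 4 samples with the fold limits 1.5 and 0.5, age in sham rats on 4 samples, and the other comparisons on all 8. Genes were called at an adjusted p under 0.05. Alternatives were DESeq2 1.42.0, other size factors and filters, summed or longest transcripts, a replicate block, and leaving out each rat. A robust dispersion fit was chosen after seeing the data. Scripts were tested on simulated counts. The genes and lists were chosen with earlier results of these data known. For each list the called genes, or else the pair with the largest difference, were named, and for each factor the 3 genes of highest r (prior count 2). A few genes that meet these criteria are not reported here. All cell type sums are TMM-scaled CPM.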

Additional observations from a re-analysis of the deposited data

How the results depend on the processing

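The count of lineage factors called was 0 in every comparison. Of all genes, the same fits called 0% for irradiation at each age and for the interaction, and 0.00638% for irradiation over both ages. For age they called 0.722% in the sham rats and 4.25% over both treatments. With every rat kept, the count of factors stayed at 0 under all alternatives for 5 of the 6 comparisons. At 1 week the 0 under DESeq2 rested on the fold limit, since Tfcp2l1 had an adjusted p of 0.0188 there. For age in sham-irradiated rats the count was 2 with DESeq2 and 2 without a filter on low counts (Hhex and Tfcp2l1 each time). The count was 1 with the robust dispersion fit (Tfcp2l1). With the replicate block it was 0 in all 6 comparisons. The replicate numbers share nothing in the labels, and the correlations between same-numbered samples ran from -0.27 to 0.17. The block moved the genes called for age in the sham rats from 111 to 20. In that comparison all genes called were 346 of 15364 with DESeq2, 436 of 21241 without the filter, and 163 of 15364 with the robust fit. Lineage calls from fits without 1 rat are not given, since 1 group then held only 1 rat.

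The difference of Glis3 over both ages, 0.0015, turned to -0.00075 with DESeq2, -0.0013 with DESeq2's size factors, -0.0018 with the upper quartile, and -0.034 with summed transcripts. The cause was not tested. Without 1 rat it ran from -0.067 to 0.12, and that of Hhex over both ages from -0.21 to 0.15. The other values that changed sign without 1 rat were Pax8 at 1 week (-0.031 to 0.27), Foxe1 at 1 week (-0.056 to 0.22), Tfcp2l1 at 4 months (-0.30 to 0.073), Glis3 at 4 months (-0.34 to 0.088), and the interactions of Pax8 (-0.29 to 0.018), Nkx2-1 (-0.019 to 0.13), and Foxe1 (-0.17 to 0.11). The order of the TPM levels was the same with summed or longest transcripts. With 2 rats per group the spread between rats, not depth, limits these values.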
